A study of Homo sapiens with 12 samples.

Results

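This report describes the response of OCI-Ly7 cells, an established line grown from a human diffuse large B-cell lymphoma, to an HDAC3 inhibitor given alone. It compares 3 libraries of cells that received the inhibitor with 3 libraries of cells that received vehicle, as the sample titles name them, which are 6 of the 12 libraries of the series. The inhibitor was given at 15 µM on days 2 and 4, and both groups were harvested on day 5 without any 5-azacitidine. The other 6 libraries came from cells given 100 nM 5-azacitidine, a cytidine analogue, every day from day 0 to day 4, alone or with the same inhibitor at the same dose and days. They share 1 fit with the 6 libraries above and so enter its gene filter, scaling and estimate of spread. The inhibitor effect is also looked at again in them. Which compound was used is not given in the sources used here. All libraries come from 1 cell line, and nothing in the labels tells separate cultures from repeat libraries of 1 culture. A p-value below therefore weighs a difference against the spread of these libraries alone, and that spread may be purely technical.

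HDAC3 removes acetyl groups from histone tails and works as the catalytic subunit of complexes built on co-repressor scaffolds such as NCOR1. DNA-binding repressors, among them nuclear receptors without ligand and BCL6, recruit these complexes to promoters and enhancers. In germinal-centre B cells, from which this type of lymphoma arises, BCL6 holds back genes of antigen presentation, cell-cycle arrest and plasma-cell differentiation, and the acetyltransferase CREBBP acts in the opposite direction on many of the same sites.

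The 6 libraries held 36076672 to 36223104 counts each. The inhibitor libraries had a count for 26564 to 26858 genes and the vehicle libraries for 24300 to 24817. Mitochondrially encoded genes took 12.1% to 13.02% of the counts with the inhibitor and 9.59% to 10.5% in vehicle, ranges that do not overlap. With those genes left out of the fit, a choice made after seeing the data, 4904 genes were higher and 4200 lower, within 1.5 times of the counts given below. Markers of B cells were abundant. MS4A1, which encodes CD20, was at 883, 889 and 841 CPM (counts scaled to a common library total) in the vehicle libraries, and all 20 B-cell identity genes of the list were tested. Of the defining genes of other cell types, S100A8, S100A9, HBB, PF4 and EPCAM had 0 counts in all 6 libraries. PECAM1, an endothelial marker that leukocytes also express, had 2281 to 2487 counts in vehicle and 2622 to 2734 with the inhibitor, and it is not part of the epithelial and stromal list summed below. Poly(A) RNA was measured in bulk, so fewer cells of a type and less RNA per cell cannot be told apart.

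Expression differed with the inhibitor for 9166 genes, 51.3% of the 17869 tested, and the 3 libraries of each group did not overlap for 10653 (59.6%). Of these, 4712 genes were higher and 4454 were lower, 26.4% and 24.9% of those tested (edgeR quasi-likelihood test, Benjamini-Hochberg adjusted p under 0.05). The share depended on the level of the gene. Among 3084 genes with a mean of 1 to 5 CPM over the 12 libraries 38.5% were higher and 8.43% lower, and among 1983 genes over 100 CPM 18.6% were higher and 49.8% lower. Large changes were almost all upward. At least 2-fold rises were called for 2240 genes (12.5%) and falls of that size for 155 (0.867%). Over 100 CPM 19 genes rose and 1 fell by that much, against 655 and 24 genes at 1 to 5 CPM. The filter on low counts looked at all 4 groups, so a gene silent in vehicle entered the test only where another group expressed it. By gene type, 35.3% of 995 intergenic long non-coding RNAs were higher and 6.33% lower, and 27.6% of 12411 protein-coding genes were higher and 32.6% lower. The types were not compared at equal levels, so this split cannot be told apart from the dependence on level. Among protein-coding genes the share that was higher ran from 19.6% on chromosome 18 to 34.2% on chromosome 12.

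**Figure D1:**
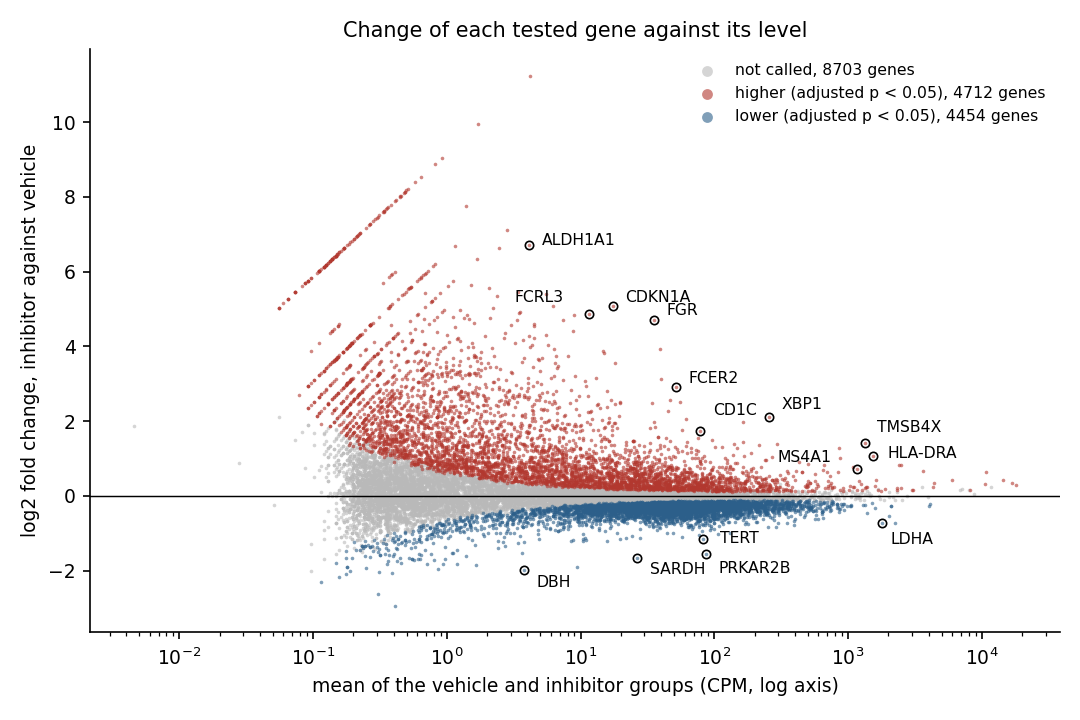
Change of each of the 17869 tested genes (log2 fold change, inhibitor against vehicle) against its mean CPM in the 2 groups on a log axis, with 4712 higher genes in red and 4454 lower genes in blue. The 2240 rises of at least 2-fold far outnumber the 155 falls of that size, and the slanted bands at upper left are genes with 0 or few vehicle counts, whose fitted fold is not a measured ratio.

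The promoters of 4 genes are shown first because the results return to their genes. CDKN1A encodes a cell-cycle inhibitor and rose strongly, FCRL3 and CD1C belong to the longest run of neighbouring genes that rose, and PRKAR2B had the largest fall of the genes with at least 100 CPM in vehicle. Each line gives the part of the 250 bases before the RefSeq transcription start (GRCh38.p14) that lies outside every annotated exon, read 5′ to 3′ on the strand of the gene. Capitals mark GGGCGG or its reverse complement CCGCCC, the core of the GC box that SP-family factors bind.
CDKN1A: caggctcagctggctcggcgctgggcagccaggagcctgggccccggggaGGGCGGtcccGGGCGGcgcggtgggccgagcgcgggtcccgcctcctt
FCRL3: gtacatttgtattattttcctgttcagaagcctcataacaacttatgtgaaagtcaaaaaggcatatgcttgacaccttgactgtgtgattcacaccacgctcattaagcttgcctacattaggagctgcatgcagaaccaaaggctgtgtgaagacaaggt
CD1C: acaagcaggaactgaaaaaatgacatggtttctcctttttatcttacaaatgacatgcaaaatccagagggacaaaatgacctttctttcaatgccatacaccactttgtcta
PRKAR2B: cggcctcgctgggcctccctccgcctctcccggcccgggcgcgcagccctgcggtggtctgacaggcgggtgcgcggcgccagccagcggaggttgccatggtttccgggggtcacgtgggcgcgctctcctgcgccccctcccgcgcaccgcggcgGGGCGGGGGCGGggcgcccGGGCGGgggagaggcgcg
The stretches are chr6:36678560-36678657 on the plus strand, chr1:157700858-157701019 on the minus strand, chr1:158289673-158289785 on the plus strand and chr7:107044455-107044648 on the plus strand. The 250 bases before the start held 4 matches at CDKN1A and 3 at PRKAR2B and 0 at FCRL3 and CD1C. Of 35116 RefSeq promoters 42.6% held at least 1 match in a window of that length. GC content was 76.4% at CDKN1A, 81.6% at PRKAR2B, 38.8% at FCRL3 and 42.4% at CD1C, beside a median of 58% over all promoters. A GC-rich promoter thus stood before a gene that rose and before a gene that fell. A match is a description of letters and says nothing of binding.

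The inhibitor target itself did not pass the test. HDAC3 was at 88.8, 90.5 and 86.3 CPM in vehicle and 92.7, 90.4 and 87.7 CPM with the inhibitor, and the groups overlap (0.02 log2, adjusted p = 0.731). Of 11 genes of the HDAC3 complex and the repressors that recruit it 2 rose and 5 fell, with a median of −0.13 on the log2 scale. The median was 0.00 over all tested genes. All 11 had a mean of at least 5 CPM over the 12 libraries. At that level the median of all genes was −0.10 and 40.35% were lower, so the list is near its background. The scaffold NCOR1 fell (log2 fold change −0.31 ± 0.06 SE, adjusted p = 7.22e-05) and the subunit TBL1XR1 rose (0.40 ± 0.06 SE, adjusted p = 7.87e-07). CORO2A, also described in these complexes, rose from 4.62 to 15.8 CPM (1.77 ± 0.11 SE, adjusted p = 1.47e-13). TBL1X (0.12) and GPS2 (0.04) did not pass. BCL6 fell from 237 to 210.2 CPM (−0.18 ± 0.05 SE, adjusted p = 0.00502), a call that was lost with a filter of 5 CPM (adjusted p = 0.0746). Without inhibitor replicate 1 the complex list held 3 falls and with that filter 2. The clock repressor NR1D1 fell by more (−0.55 ± 0.09 SE, adjusted p = 2.05e-05).

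Most acetyltransferases fell. Of 14 acetyltransferases 11 fell and 0 rose (median −0.31). CREBBP was at 107, 114 and 104 CPM in vehicle and 62.9, 74.8 and 75.6 CPM with the inhibitor. All 3 inhibitor libraries were below all 3 vehicle libraries (−0.61 ± 0.08 SE, adjusted p = 3.17e-07). KAT2A (−0.57), KAT2B (−0.55), KAT7 (−0.46) and HAT1 (−0.40) fell as well. Of 17 other deacetylases 6 rose and 4 fell. The class IIa enzymes HDAC9 (1.05) and HDAC5 (0.57) rose, and the sirtuins SIRT1 (−0.59) and SIRT7 (−0.76) fell. Of 19 acetyl-lysine readers and elongation factors 5 rose and 9 fell, among them ELL2 up (1.59) and BRD1 down (−0.54), and of all genes at 20 to 100 CPM 46.1% were lower. Polycomb proteins and lysine methyltransferases counted 4 up and 19 down of 36, with PHF19 (−0.58) and KMT2B (−0.61) lower. Of 18 genes of DNA methylation 6 rose and 8 fell. DNMT3A, which methylates DNA de novo, rose (0.73), while UHRF1, the partner of maintenance methylation, fell (−0.39).

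CDKN1A encodes p21, an inhibitor of cyclin-dependent kinases that BCL6 is known to repress. It was at 1.19, 1.02 and 0.776 CPM in the vehicle libraries and 30.5, 34.6 and 36.8 CPM in the inhibitor libraries. The groups are far apart and do not overlap, and the rise was 34.1-fold (log2 fold change 5.08 ± 0.12 SE, adjusted p = 7e-22). Per kilobase of exon its level moved from percentile 25.9 to percentile 80.6 of the tested genes. Of 8 genes for such inhibitors 4 rose and 1 fell. CDKN2D rose (0.78) and CDKN1B, p27, rose slightly (0.24). CDKN2B rose at a low level (0.89), a call lost without vehicle replicate 2 (adjusted p = 0.0849) or inhibitor replicate 2 (adjusted p = 0.0597). CDKN3 fell (−0.20), a call lost without vehicle replicate 3 (adjusted p = 0.066), inhibitor replicate 2 (0.0579) or inhibitor replicate 3 (0.0673), and CDKN2A (0.11), CDKN2C (−0.07) and CDKN1C (1.90) did not pass. CDKN2A passed when only the 6 libraries were fitted (adjusted p = 0.0286).

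Several of the largest rises were in genes for surface or signalling proteins of immune cells. FGR, a SRC-family kinase, was at 2.48, 3.21 and 2.02 CPM in vehicle and 69.4, 63.2 and 71.1 CPM with the inhibitor, with no overlap (26.4-fold, log2 4.72 ± 0.10 SE, adjusted p = 4.22e-23). FCRL3, a receptor with inhibitory and activating motifs, was at 0.607, 1.02 and 0.665 and then 22.4, 21.7 and 23.4 CPM (29.4-fold, adjusted p = 5.22e-20). CUEDC1 went from 0.524, 0.692 and 0.582 to 16.8, 17.6 and 17.3 CPM. In each of these 3 genes the lowest inhibitor library was well above the highest vehicle library. ITGAM, the integrin chain CD11b, rose from 0.351 ± 0.21 to 12.02 ± 0.517 CPM (SD, n = 3), and CLEC7A, the beta-glucan receptor dectin-1, rose from 0.221 ± 0.146 to 6.72 ± 0.691 CPM. FPR1, a formyl peptide receptor, rose from 0.351 to 8.67 CPM, and NCR3, the receptor NKp30, rose from 0.544 to 14.3 CPM. Outside the immune system, MOXD1 rose from 0.249 ± 0.028 to 10.8 ± 0.406 CPM, the receptor tyrosine kinase ERBB3 from 0.148 to 6.63 CPM, and ALDH1A1, which makes retinoic acid from retinal, from 0.0738 ± 0.032 to 8.15 ± 0.222 CPM. The last 2 had only a few counts in vehicle, so their levels are given without a fold.

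Among abundant genes the rises were smaller in fold and large in RNA. XBP1, the transcription factor of the secretory programme, was at 95.5, 92.03 and 99.98 CPM in vehicle and 411, 419 and 420 CPM with the inhibitor (4.35-fold, log2 2.12 ± 0.05 SE, adjusted p = 1.55e-21). LAPTM5, a lysosomal membrane protein of lymphocytes, was at 61.5, 64.7 and 71.7 and then 258, 259.8 and 266 CPM (3.97-fold, adjusted p = 5.17e-20). TMSB4X, which binds monomeric actin, was at 726, 715 and 726 and then 1975, 1911 and 1968 CPM (2.7-fold, adjusted p = 2.94e-17). The groups do not overlap in any of the 3 genes. CD1C, which presents lipids, rose 3.32-fold, PIK3C2B from 38.4 to 112 CPM, RGS16 from 50.7 to 142 CPM, CPNE5 from 162 to 428 CPM and PRKCB, a kinase of B-cell receptor signalling, from 78.4 to 205 CPM.

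**Figure D2:**
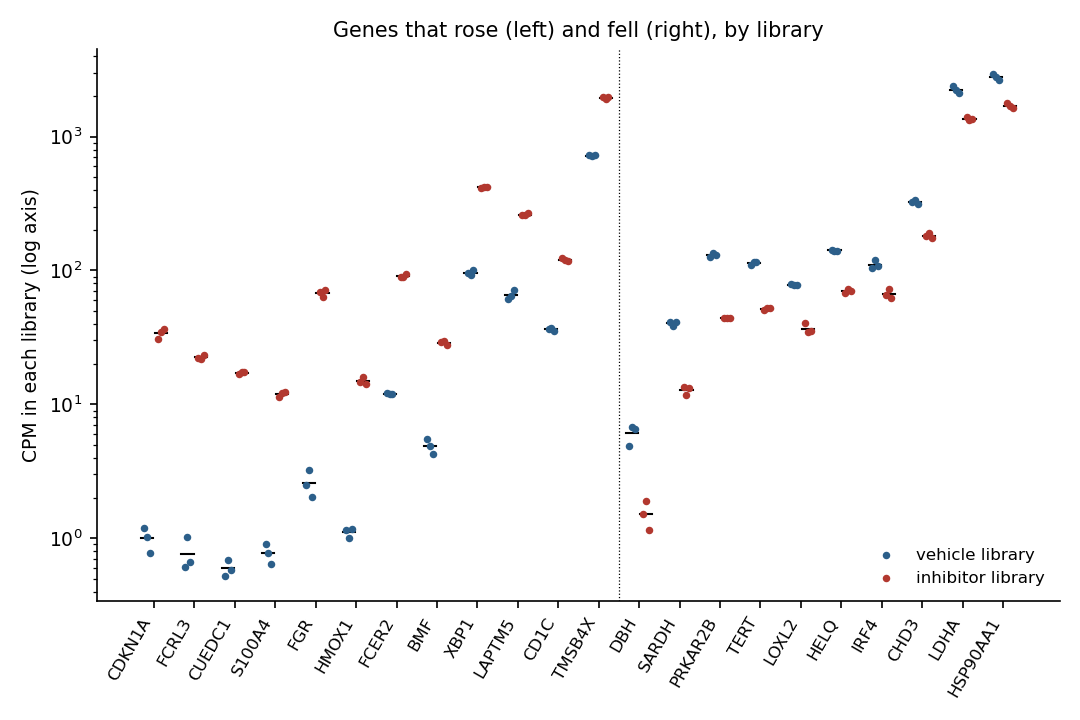
CPM on a log axis in each of the 3 vehicle and 3 inhibitor libraries (points) with the group mean (black line), for 12 genes that rose and 10 that fell. For each gene the 2 groups are separate, with CDKN1A between 0.776 and 36.8 CPM and LDHA moving by 1.65-fold.

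Genes that were silent in vehicle formed a small group at low levels. Of 51842 genes with at most 1 count in every vehicle library 54 had at least 10 counts in every inhibitor library. No gene went the other way, out of 14846 with at least 10 counts in every vehicle library. Of the 54, 38 were protein-coding, and 51 also had at least 10 counts in every library of the inhibitor with 5-azacitidine. In 5-azacitidine alone 15 had at most 1 count in every library. Only LINC00487 reached 10 counts in any library of 5-azacitidine alone, with a highest count of 18. The median of the 54 was 0.682 CPM with the inhibitor, and 8 reached 1 CPM. PRAME, a cancer-testis antigen, had 0 counts in vehicle and 6.97, 9.17 and 8.99 CPM with the inhibitor, at least 101-fold above the floor of 3 counts per library. EBI3, a subunit of interleukins 27 and 35, was at 0 and then 2.96, 2.96 and 4.37 CPM, at least 41.3-fold higher. Among the other protein-coding genes of this group PPP1R1C (1.82 CPM), LAMB4 (1.64 CPM), GRAP2 (1.27 CPM) and CD300LF (1.02 CPM) were highest, and 2 genes without a symbol reached 2.75 and 1.16 CPM. BANK1, a B-cell scaffold, had 4 counts over the vehicle libraries and 4.76, 7.04 and 5.09 CPM with the inhibitor.

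The falls were few in number at 2-fold and modest in size. PRKAR2B, a regulatory subunit of protein kinase A, was at 127, 135 and 129.5 CPM in vehicle and 44.3, 44.2 and 44.4 CPM with the inhibitor (2.94-fold lower, log2 −1.56 ± 0.06 SE, adjusted p = 4.86e-18). TERT, the catalytic subunit of telomerase, was at 110, 116 and 116 and then 50.5, 52.3 and 52.04 CPM (2.21-fold lower, adjusted p = 1.46e-13). Both are clear of overlap. DBH, dopamine beta-hydroxylase, fell from 6.07 ± 1.01 to 1.53 ± 0.372 CPM and SARDH, sarcosine dehydrogenase, from 40.3 ± 1.43 to 12.9 ± 0.954 CPM; the 2 genes are neighbours on chromosome 9. LOXL2, a lysyl oxidase, fell from 78.3 to 36.8 CPM, the helicase HELQ from 141 to 70.4 CPM, the remodeller CHD3 from 326 to 182 CPM, KANK1 from 173 to 87.1 CPM and ESR2, estrogen receptor beta, from 29.8 to 13.7 CPM. SVIL-AS1 also fell, but the authors' counts did not use strand, and antisense reads may belong to SVIL. Telomerase and shelterin genes counted 0 up and 6 down of 15. Of these, 13 had a mean of at least 5 CPM over the 12 libraries and 5 of the 13 fell. That share is near the 40.35% lower of all genes at that level.

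Genes that rose had a neighbour that rose more often than other genes did. Of 12382 protein-coding genes in order along the chromosomes 11.6% rose at least 2-fold. The next tested gene also rose in 19.5% of cases after a gene that rose and in 10.5% after one that did not. There were 52 runs of at least 3 such genes. The genes of the runs below were chosen after their values were seen. The longest run held 11 tested genes on chromosome 1 at 157513377 to 158849506 (GRCh38), with 16 more protein-coding genes in the span that were too low to test, olfactory receptors for the most part. It ran through the Fc receptor-like genes FCRL5 (41.2 to 93.8 CPM), FCRL4 (0.0921 to 2.61), FCRL3, FCRL2 (2.79 to 12.3) and FCRL1 (39.3 to 95.0) and on to CD1D (5.599 to 23.2), CD1A (0.996 to 5.73) and CD1C. The promoters of FCRL3 and CD1C printed above lie in it. On chromosome 6 at 32439878 to 32763532 all 7 protein-coding genes of the class II region from HLA-DRA (994 to 2090 CPM) to HLA-DQB2 (2.82 to 10.3) rose, although reads shared by near-identical HLA genes make single values uncertain. A run on chromosome 10 held CDH23, C10orf105 (0.0553 to 0.295), VSIR, PSAP and SPOCK2. One on chromosome 11 held DYNC2H1 (0.175 to 0.608), PDGFD, the inflammatory caspase genes CASP4 (1.86 to 4.70) and CASP1 (1.23 to 11.4), and CARD16 (1.46 to 5.68). On chromosome 12, PTMS (15.4 to 39.7), LAG3 (0.129 to 0.682), CD4 (0.0185 to 0.35), GPR162 (0.0185 to 0.184) and P3H3 (0.185 to 2.98) rose. LAG3, CD4 and GPR162 stayed at low levels. The overlapping gene MLF2 did not pass (140 to 143 CPM, adjusted p = 0.734).

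**Figure D3:**
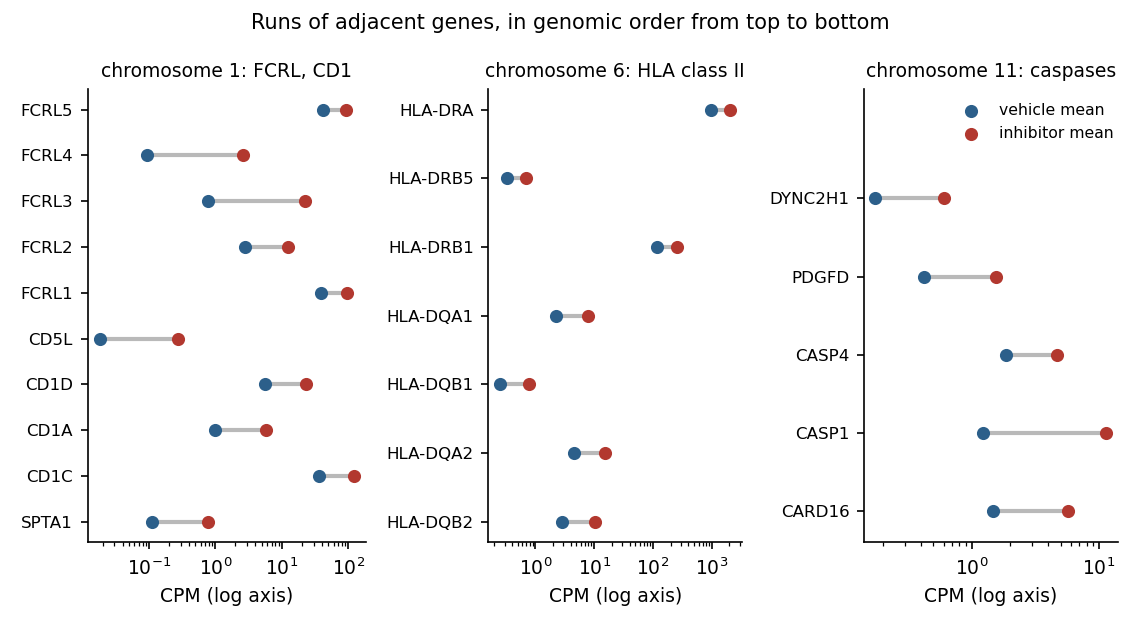
Mean CPM (log axis) of vehicle and inhibitor for the tested genes of runs of neighbouring genes, in genome order, in 3 panels. FCRL3 has the widest gap on chromosome 1, from 0.766 to 22.5 CPM, and MNDA is left out because it had 0 counts in vehicle.

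B-cell identity genes moved in both directions. Of 20 such genes 9 rose and 6 fell (median 0.13). MS4A1 was at 1475, 1442 and 1428 CPM with the inhibitor, above every vehicle library (0.73 ± 0.05 SE, adjusted p = 3.88e-12). CD74, the class II invariant chain, rose from 2781 to 4463 CPM. PAX5, the factor that keeps B-cell identity, rose slightly (0.19) and SPIB rose (0.64). BLNK (−0.61), IKZF3 (−0.48), CD37 (−0.39), TCF3 (−0.33), BLK (−0.28) and SPI1 (−0.17) fell. SPI1 no longer passed when vehicle replicate 1 was left out (adjusted p = 0.166), nor without vehicle replicate 3 (0.0872) or inhibitor replicate 2 (0.0923). CD22 (0.12) and POU2AF1 (0.13) did not pass, but did when only the 6 libraries were fitted (adjusted p = 0.00157 and adjusted p = 0.00194). Of 33 genes of B-cell receptor signalling 15 rose and 8 fell, with VAV3 (1.22), RASGRP1 (1.25) and the phosphatase PTPN6 (0.71) among those higher.

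Of 21 germinal-centre regulators 6 rose and 9 fell. MYBL1 fell from 64.8 to 32.8 CPM (−0.99 ± 0.07 SE, adjusted p = 2.28e-12) and LMO2 rose from 0.692 to 8.84 CPM (3.67 ± 0.17 SE, adjusted p = 1.05e-15). Plasma-cell genes counted 13 up and 2 down of 19 (median 0.45). PRDM1, which encodes BLIMP1, was at 2.43, 2.35 and 2.05 CPM in vehicle and 9.88, 8.76 and 9.3 CPM with the inhibitor. Its groups are separate (2.02 ± 0.12 SE, adjusted p = 1.27e-13). JCHAIN rose from 805 to 1374 CPM, while IRF4, also needed for plasma cells, fell from 110.2 to 67.03 CPM (−0.72 ± 0.07 SE, adjusted p = 1.23e-09). Of 24 genes known to be repressed by BCL6, 14 rose and 9 fell. At a mean of at least 5 CPM over the 12 libraries 10 rose and 9 fell of 20 (median 0.17). Of all tested genes at that level 22.2% were higher and 40.35% lower, so the share that fell is near its background. Among the rises were CXCR5, from 2.35 to 10.96 CPM, and CD86, from 45.7 to 106 CPM.

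Fc, complement and inhibitory receptors moved together. Of 25 tested 21 rose and 0 fell, with a median of 2.17 on the log2 scale. FCER2, the low-affinity IgE receptor CD23, was at 12.1, 11.9 and 11.9 CPM in vehicle and 89.8, 89.1 and 93.7 CPM with the inhibitor (2.92 ± 0.07 SE, adjusted p = 2.34e-22). FCGR2B, the inhibitory IgG receptor of B cells, rose from 16.5 ± 1.06 to 95.1 ± 2.6 CPM and CR2, the complement receptor CD21, from 34.9 ± 1.69 to 88.9 ± 3.88 CPM. Reads shared with FCGR2A and FCGR2C make the value of FCGR2B uncertain. FCRLA (0.07) and CD22 did not pass.

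Over all tested genes 26.4% were higher and 24.9% lower. Among genes with a mean of at least 5 CPM over the 12 libraries 22.2% were higher and 40.35% lower. Migration receptors counted 11 up and 2 down of 19 tested, and 3 up and 2 down of the 11 at that level. The summed level of the whole list was 1068 to 1113 CPM in vehicle and 1014 to 1038 CPM with the inhibitor. CCR7, which guides lymphocytes to lymph nodes, was at 0.276, 0.388 and 0.527 CPM in vehicle and 7.8, 7.26 and 8.36 CPM with the inhibitor (4.28 ± 0.21 SE, adjusted p = 1.61e-15). Costimulatory and checkpoint genes counted 15 up and 2 down of 22, with TNFSF9 (1.45), VSIR (1.37) and HAVCR2 (1.55) higher. Of 33 cytokine genes 13 were tested and 10 rose, most of them at low levels. TNF rose from 3.04 ± 0.618 to 15.4 ± 1.78 CPM (adjusted p = 4.71e-14), IL23A from 4.3 to 7.84 CPM, and CCL5 reached 0.885 CPM from 0. Cytokine receptors split into 11 up and 6 down of 22, with IL7R (1.57) and IL2RA (1.57) higher and IL10RA (−0.62) lower. Class II genes counted 13 up and 2 down of 17, and class I and related genes 11 up and 5 down of 19. Interferon-response genes counted 26 up and 6 down of 46, with OAS3 rising from 26.3 to 89.3 CPM and PARP9 from 1.01 to 11.96 CPM. At a mean of at least 5 CPM interferon-response genes counted 14 up and 6 down of 30. Cytokine receptors there counted 8 up and 6 down of 17, and costimulatory and checkpoint genes 8 up and 2 down of 13. Class II genes there counted 11 up and 2 down of 15.

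Early-response factors and feedback regulators of MAP kinase signalling had more rises than falls. Over all tested genes 26.4% were higher and 24.9% lower. Among genes with a mean of at least 5 CPM over the 12 libraries 22.2% were higher and 40.35% lower. Of 31 AP-1, EGR and KLF genes 17 rose and 3 fell, and 9 and 2 of the 16 at 5 CPM or more. FOS was at 5.19, 4.04 and 3.08 CPM in vehicle and 23.4, 22.01 and 14.6 CPM with the inhibitor, and JUN at 2.15, 1.55 and 1.27 and then 9.99, 7.73 and 7.58 CPM. In both genes the groups are separate (adjusted p = 2.38e-10 and adjusted p = 2.72e-10). KLF2, which holds lymphocytes in a resting state, rose (2.25) and KLF15 fell (−1.24). Of 21 feedback genes 12 rose and 3 fell, and 5 and 3 of the 12 at 5 CPM or more. The phosphatases DUSP5 (2.67) and DUSP16 (2.38) and the inhibitor SPRY1 (4.56) were among those higher. NOTCH, WNT and TGF-beta genes counted 22 up and 4 down of 33, among them ID3, an inhibitor of E proteins, from 577 to 1178 CPM. NF-kappaB subunits and targets counted 12 up and 9 down of 26, and 8 up and 9 down of the 22 at 5 CPM or more. Clock genes counted 2 up and 7 down of 15, or 4 down without inhibitor replicate 1 or 3, with PER2 lower (−0.41) and BHLHE40 higher (3.76). At 5 CPM or more the clock genes counted 0 up and 7 down of 13. Nuclear receptors counted 6 up and 5 down of 19, with VDR (1.86) and THRA (1.15) higher and the glucocorticoid receptor NR3C1 lower (−0.38).

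Mitosis genes and cyclins were mostly lower, by small amounts. Mitosis genes counted 20 down and 0 up of 25 (median −0.37), cyclins, kinases and E2F factors 17 down and 3 up of 25, and replication genes 16 down and 2 up of 32. Of all tested genes over 100 CPM 49.8% were lower, so the share of replication genes that fell is near that of other abundant genes. CCND3, cyclin D3, was at 376, 356 and 381 CPM in vehicle and 228, 217 and 238 CPM with the inhibitor (−0.71 ± 0.05 SE, adjusted p = 1.41e-11). PLK1 (−0.54), TTK (−0.63), CCNE1 (−0.81) and MCM4 (−0.39) fell too. MYC rose from 252 to 316 CPM (0.32 ± 0.06 SE, adjusted p = 3.19e-05). Ribosome biogenesis genes counted 25 down and 0 up of 30 (median −0.39), with TSR1 (−0.68) and WDR12 (−0.58) lower. Of 27 nucleotide synthesis genes 21 fell and 1 rose, CTPS1 (−0.57) and TYMS (−0.51) among the falls. By contrast, of 49 cytosolic ribosomal proteins 16 rose and 1 fell, by little (median 0.08). That count of rises was 8 without vehicle replicate 2, 9 without inhibitor replicate 1 and 27 in a fit of the 6 libraries alone. Among p53 targets 13 of 26 rose and 7 fell, with BTG2 rising from 65.4 to 162 CPM. BCL2-family genes counted 7 up and 6 down of 16. BMF, a pro-apoptotic BH3-only gene, was at 5.47, 4.93 and 4.3 CPM in vehicle and 29.1, 29.96 and 27.6 CPM with the inhibitor (2.55 ± 0.08 SE, adjusted p = 5.53e-19), while BID fell (−0.67) and anti-apoptotic BCL2A1 rose (1.88).

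In metabolism, glycolysis genes counted 14 down and 6 up of 27. LDHA, lactate dehydrogenase A, was at 2388, 2217 and 2119 CPM in vehicle and 1392, 1342 and 1344 CPM with the inhibitor (1.65-fold lower, adjusted p = 7.69e-11). GPI (−0.84) and HK2 (−0.72) fell with it. Nuclear genes of the respiratory chain counted 17 down and 0 up of 32. Of all tested genes 46.1% were lower at 20 to 100 CPM and 49.8% over 100 CPM. The shares of glycolysis and respiratory chain genes that fell are near those. Of 13 mitochondrially encoded genes 4 rose and 0 fell. That count of rises was 8 without 5-azacitidine replicate 1 and 11 in a fit of the 6 libraries alone. FASN, fatty acid synthase, fell (−0.56), and of 23 genes of cholesterol synthesis 8 rose and 3 fell. Lysosome and autophagy genes counted 17 up and 5 down of 31. The smallest adjusted p was that of PSAP, which encodes the saposins (494, 496 and 508 CPM in vehicle and 1218, 1210 and 1216 CPM with the inhibitor, adjusted p = 4.56e-18). HMOX1, haem oxygenase 1, rose from 1.11 ± 0.0952 to 14.9 ± 0.896 CPM and the metallothionein MT2A from 14.1 to 56.5 CPM. Chaperones counted 8 up and 11 down of 25. The cytosolic HSP90AA1 (−0.71) and HSPH1 (−0.79) fell, and HSP90B1 (0.65), PDIA4 (0.55) and DNAJB9 (1.01) of the endoplasmic reticulum rose.

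Cytoskeletal and motility genes counted 21 up and 5 down of 32, with VCL, vinculin, rising from 84.6 to 164 CPM and PDLIM1 from 86.5 to 209.9 CPM. Annexins, galectins, S100 proteins and tetraspanins counted 15 up and 5 down of 23, with S100A4 rising from 0.775 ± 0.137 to 11.9 ± 0.474 CPM, LGALS1 from 4.13 to 22.9 CPM and CD82 from 3.97 to 27.8 CPM. Of 27 ion channels 12 rose and 7 fell. HVCN1, the voltage-gated proton channel of B cells, was at 9.94, 9.5 and 11.3 CPM in vehicle and 55.6, 58.7 and 59.5 CPM with the inhibitor, with separate groups (2.49 ± 0.07 SE, adjusted p = 5.17e-20). Synaptic and neuronal genes counted 12 up and 1 down of 19 tested of 37.

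The remaining lists moved less evenly. Over all tested genes 26.4% were higher and 24.9% lower, and over 100 CPM 18.6% and 49.8%. Integrins counted 10 up and 3 down of 17, with the fibronectin receptor chain ITGA5 rising from 0.0923 to 0.968 CPM and ITGA3 from 20.2 to 36.02 CPM. Death receptors and caspases counted 12 up and 4 down of 24, and CASP10, an initiator caspase, rose from 2.19 to 11.2 CPM. MLKL, the effector of necroptosis, rose from 9.77 to 19.5 CPM. Of 11 genes of the MYC and MAX network 4 rose and 4 fell, among them MXI1 up (0.91) and MNT down (−0.55), both antagonists of MYC. Aminoacyl-tRNA synthetases counted 2 up and 11 down of 20, and ATF4 targets and amino acid transporters 5 up and 8 down of 19. In the latter the transporter SLC7A5 fell (−0.39) and DDIT4, an inhibitor of mTORC1, rose from 4.13 ± 0.472 to 22.5 ± 1.16 CPM. Tubulins and microtubule proteins split evenly, 6 up and 5 down of 19. Of 14 replacement histone genes 4 rose and 6 fell, the linker histone H1-10 rising (0.75) and H2AZ1 falling (−0.33). Of 21 genes of glutathione, NRF2 and metallothioneins 4 rose and 8 fell. Cholesterol export genes counted 3 up and 1 down of 8, with the exporter ABCG1 rising from 23.6 to 60.1 CPM, and fatty acid synthesis 6 up and 4 down of 14. Of 8 tested genes of retinoid metabolism 3 rose and 2 fell, DHRS9 rising from 1.0 to 8.43 CPM beside ALDH1A1.

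**Figure D4:**
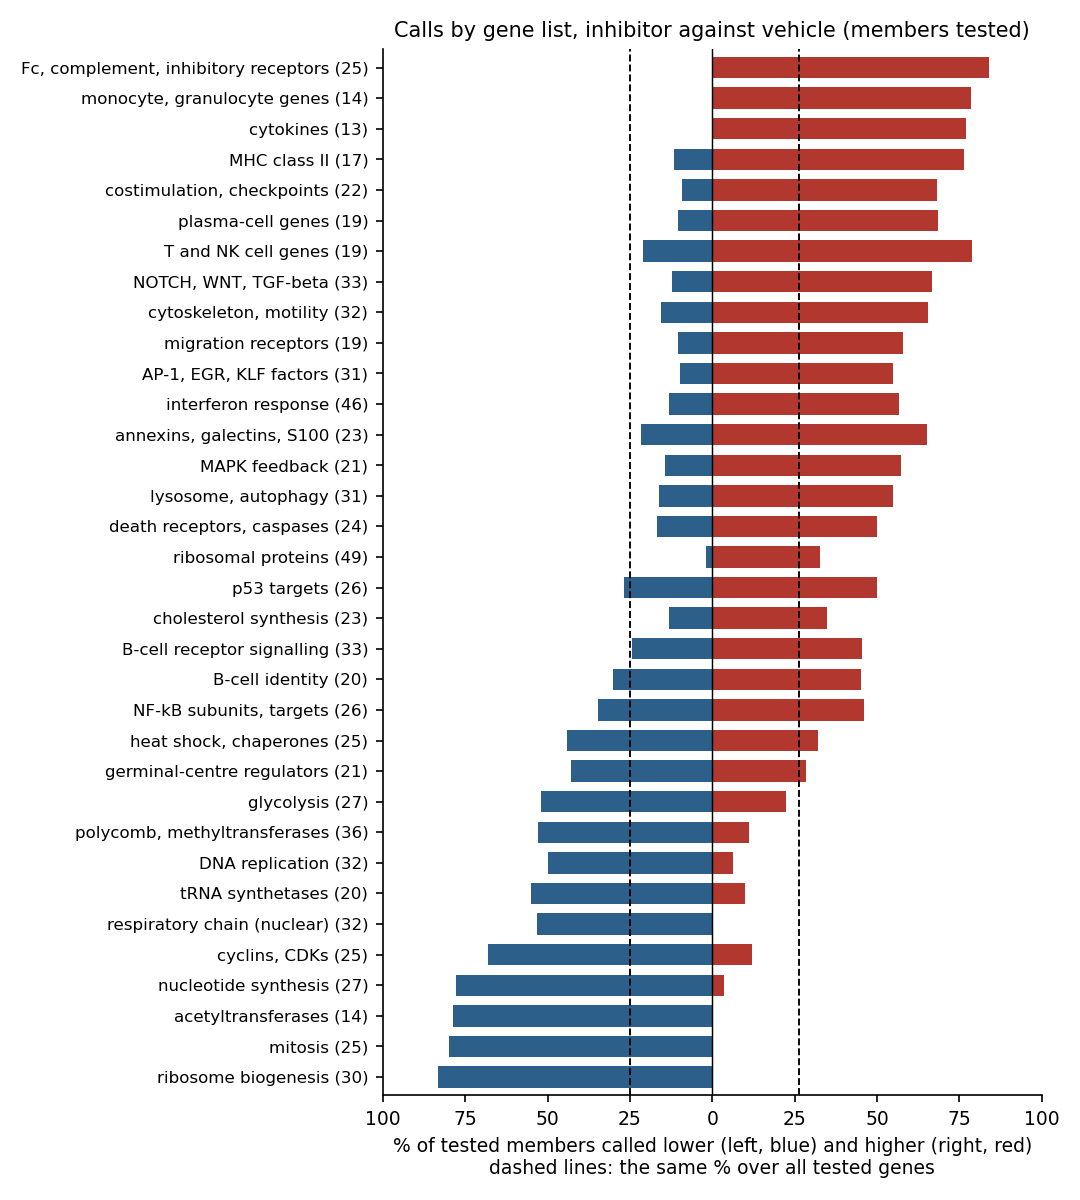
Percent of the tested members of 34 gene lists that were higher or lower with the inhibitor, with dashed lines at the 26.4% and 24.9% of all tested genes. Fc and complement receptors lie at one end with 21 of 25 higher, and ribosome biogenesis with 25 of 30 lower at the other.

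Marker genes of other cell types rose in part. Of 34 T and NK genes 19 were tested, 15 rose and 4 fell, and their summed level was 702 to 729 CPM in vehicle and 1018 to 1046 CPM with the inhibitor. CD3E had 30 to 41 counts in vehicle and 222 to 242 with the inhibitor, and CD3D 0 to 2 and 4 to 13, a rise whose call was lost without inhibitor replicate 1 (adjusted p = 0.0751). Of 30 monocyte and granulocyte genes 14 were tested and 11 rose, and the summed level went from 65.3 to 68.8 CPM up to 177 to 186 CPM. LYZ had 0 to 2 and 32 to 40 counts, whereas CD14 had 11 to 16 and 6 to 16. Of 30 epithelial and stromal genes 8 were tested and 6 rose, summing to 7.35 to 8.75 CPM and then 25.7 to 30.1 CPM, with COL1A1 at 0 to 6 and 96 to 116 counts. Of 27 cancer-testis genes 7 were tested and 5 rose, or 3 without vehicle replicate 2 or 3. Of 22 erythroid and megakaryocyte genes 5 were tested, 2 rose and 1 fell, and the summed level went from 443 to 478 CPM down to 321 to 334 CPM. Of each list some members had 0 counts in all vehicle libraries, 11 of the T and NK genes, 13 of the monocyte and granulocyte genes, 18 of the epithelial and stromal genes and 14 of the erythroid and megakaryocyte genes. Genes of these lists that were silent in vehicle could be tested only where another group expressed them. The part of other cells in the immune-gene rises was not tested.

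The inhibitor effect was measured again in the libraries that also received 5-azacitidine. The group means share no library with the comparison above, but both comparisons come from 1 fit. They share its gene filter, scaling and estimate of spread, so their calls are not independent of each other. On 5-azacitidine 5123 genes were higher and 4491 lower, 28.7% and 25.1% of those tested. In these libraries 5-azacitidine replicate 1 and combination replicate 3 had the highest mitochondrial shares, 13.8% and 15.3%, and without both 4748 genes were higher and 3837 lower. Across the 17869 genes the 2 sets of log2 fold changes had a Pearson correlation of 0.887 and a Spearman correlation of 0.821, a description over genes, which are not independent replicates. Of the 4712 genes higher with the inhibitor alone 4023 (85.4%) were also called higher on 5-azacitidine and 4 were called lower. Of the 4454 lower genes 3491 (78.4%) were called lower again and 7 higher. CDKN1A rose in both (5.08 ± 0.12 SE alone and 4.42 ± 0.10 SE on 5-azacitidine), and so did XBP1 (2.12 and 1.78) and LAPTM5 (1.98 and 1.84). TERT fell in both (−1.15 and −0.94). The difference between the 2 effects was called for 128 genes (0.716%), a number that single libraries moved. It was 689 without combination replicate 2 and 193 without 5-azacitidine replicate 1. Without vehicle replicate 2 it was 89, and without any other 1 library it was between 35 and 71. FGR rose less on 5-azacitidine (3.35 ± 0.08 SE, adjusted p = 2.1e-06 for the difference), and so did CUEDC1 (3.38 ± 0.11 SE, adjusted p = 0.000797) and MPEG1, which encodes perforin-2 (1.32 ± 0.06 SE alone, 0.55 ± 0.06 SE on 5-azacitidine, adjusted p = 1.75e-05).

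**Figure D5:**
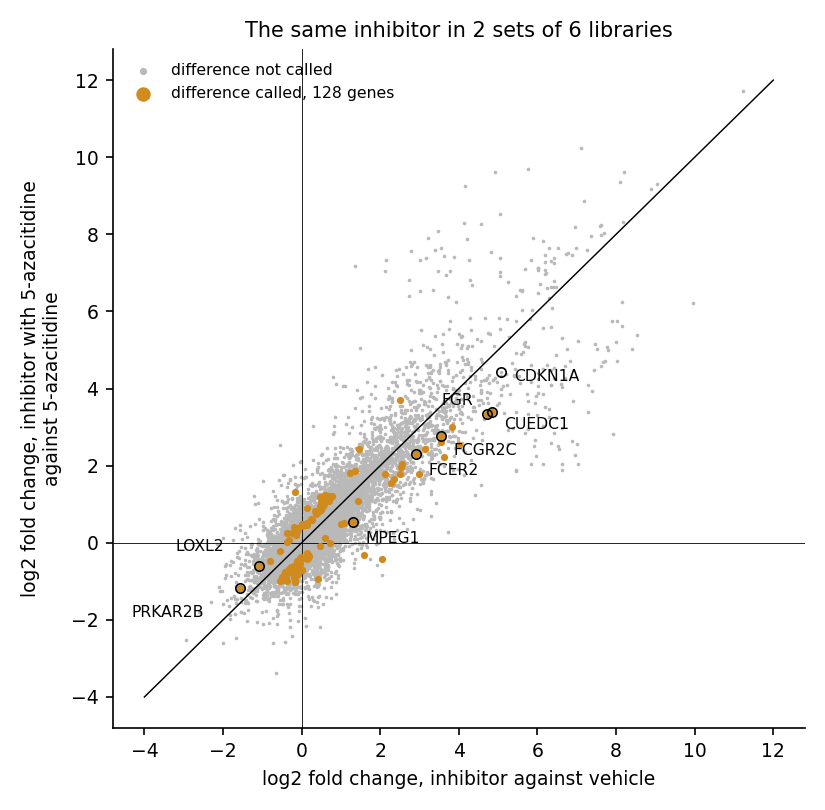
Log2 fold change of the inhibitor on 5-azacitidine against that of the inhibitor alone for the 17869 tested genes, with the line of equality. The 128 genes whose 2 effects differed are marked, and FGR lies below the line at 4.72 alone and 3.35 on 5-azacitidine.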

How the data were processed

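Poly(A) RNA of OCI-Ly7 cells was sequenced. The submitters' processing notes name cutadapt 5.1, the aligner STAR 2.7.11b and featureCounts of Subread 2.1.2. Per the file headers, the authors counted reads or read pairs per gene (GRCh38, release 114) without strand, gave multi-mapped reads as fractions and left out reads over several genes. The deposited values are thus estimated counts, of which 96.9% were whole (tolerance 1e-06), and genes that overlap others read low. The header lists 16 libraries, of which 12 were analysed here and 4 were not.

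Expected counts were rounded. The 12 libraries (35947872 to 36337086 counts each) entered 1 edgeR 4.0.16 quasi-likelihood fit in R 4.3.3 with filterByExpr, TMM scaling and Benjamini-Hochberg adjustment, checked on simulated data. CPM values used the library totals. Symbols came from a gene table (61461 of 78892 IDs). Python 3.11.15 did the rest. Promoters came from RefSeq.

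The genes named were the 16 largest rises and falls of at least 5 CPM, the 10 largest of at least 100 CPM, the 8 highest of those silent in vehicle, the 5 of smallest adjusted p in each list, and all members of 3 lists (HDAC3 complex, CDK inhibitors, B-cell identity), a few of which are not reported here. Genes of neighbouring runs and defining markers of other cell types were added after their values were seen. The members and lists were chosen with earlier results of these data known. Alternatives were DESeq2 1.42.0, limma 3.58.1 voom, other scalings and filters, a test against a 1.5-fold change, a replicate block and fits without 1 library. Intervals are not given for counts, and SE and SD cover the spread between libraries only. Replicate libraries differed by more than sampling noise, so none was counted as a duplicate.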

Additional observations from a re-analysis of the deposited data

Results flagged for a closer look

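The inhibitor effect with 5-azacitidine differed from the effect of the inhibitor alone, by a test of the difference itself (edgeR quasi-likelihood, Benjamini-Hochberg adjusted over 17869 genes), for 13 of the genes named in the text. Values are log2 differences, with minus without 5-azacitidine. The rise was smaller with 5-azacitidine for CUEDC1 (−1.45, adjusted p = 0.000797), FGR (−1.37, adjusted p = 2.1e-06), PARP9 (−0.93, adjusted p = 0.0165), FCGR2C (−0.78, adjusted p = 0.00504) and MPEG1 (−0.77, adjusted p = 1.75e-05). It was also smaller for FCER2 (−0.63, adjusted p = 0.000775), FCGR2B (−0.56, adjusted p = 0.00169), BMF (−0.51, adjusted p = 0.0294), XBP1 (−0.34, adjusted p = 0.0242) and TMSB4X (−0.33, adjusted p = 0.0404). The fall was smaller for LOXL2 (0.49, adjusted p = 0.0067), PRKAR2B (0.40, adjusted p = 0.0167) and FASN (0.34, adjusted p = 0.025). The calls for CUEDC1, FGR, FCGR2C, MPEG1, FCER2, FCGR2B and LOXL2 held under every alternative run. That for PARP9 was lost without vehicle replicate 3 (adjusted p = 0.0794), and that for PRKAR2B without vehicle replicate 3 (0.0533) or any 1 inhibitor library (0.0547 to 0.0564). Those for BMF, XBP1, TMSB4X and FASN were each lost when any of several single libraries was left out, 9, 8, 10 and 9 of the 12, with adjusted p up to 0.128, 0.0966, 0.138 and 0.0923. BMF was also lost with limma voom (0.0522), FASN with library totals only (0.0608) and TMSB4X with the replicate block (0.0551). FASN (0.0653) and TMSB4X (0.0686) were also lost without both libraries of highest mitochondrial share. Groups of 3 libraries were not tested for single outlying values.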

How the results depend on the processing

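No named gene changed direction in a call under any alternative. A filter of 5 CPM left 3019 genes higher, with 574 at least 2-fold higher and 18 at least 2-fold lower, because fewer genes were tested, and 3388 higher on 5-azacitidine. With that filter several lists lost rises through their low members, T and NK genes from 15 to 7, monocyte and granulocyte genes from 11 to 4, cytokines from 10 to 5. A 1.5-fold threshold left 2055 higher and 144 lower. The count of genes whose 2 inhibitor effects differ was 314 with no filter, 204 with the 5 CPM filter and 379 with DESeq2, and the cause was not tested. Leaving out each library in turn gave 4268 to 5009 higher and 3926 to 4680 lower genes, 2187 to 2380 and 131 to 174 at 2-fold, 4786 to 5254 and 4124 to 4518 on 5-azacitidine, and 35 to 689 for the difference. Without mitochondrially encoded genes, an alternative chosen after seeing the data, 4904 genes were higher and 4200 lower. Without 5-azacitidine replicate 1 and combination replicate 3, also chosen then, the difference was called for 122 genes. The block used the replicate numbers of the titles. The numbers in the library names are the same between vehicle and inhibitor libraries but differ in part for the libraries with 5-azacitidine, so the block over 12 libraries may join libraries that share no number there. With the replicate block 4685 genes were higher and 4459 lower, and 4929 and 4648 with the block in the 6 libraries alone. Same-numbered vehicle and inhibitor libraries correlated at 0.00147, 0.0167 and 0.0169 in their deviations, so the numbers were not taken as pairs, although among the inhibitor libraries each vehicle library correlated best with the one of its own number, a hint only. Over the scalings and filters the median change of all genes stayed between −0.02 and 0.02. Depth limits genes under about 0.0831 CPM, the level of 3 counts.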
